A study of Mus musculus with 11 samples.

Results

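The genes described here are 37 genes of fatty acid oxidation and targets of the nuclear receptor PPARA, taken by symbol from a list, and all 37 were found among the 19207 genes of the deposited count table. They fall into 9 peroxisomal genes, 4 genes of omega oxidation, 4 of the carnitine shuttle, 12 of mitochondrial beta oxidation, 1 ketone body gene, 3 genes of acyl-CoA synthesis and hydrolysis, and 4 regulators and uptake genes. RNA of mouse liver was sequenced in 11 libraries from C57BL/6 mice that were wild type or Hmgb2-/- and had received oil or the liver poison carbon tetrachloride (CCl4). Hmgb2 is the gene of a DNA-bending chromatin protein. The groups were WT-Oil (wild type given oil, libraries S1, S2 and S3), WT-CCL4 (wild type given CCl4, S4, S5 and S6), Hmgb2KO-Oil (Hmgb2-/- given oil, S11 and S12) and Hmgb2KO-CCL4 (Hmgb2-/- given CCl4, E24, E25 and S15). The labels give no sex, age, dose, number of treatments, hour of collection or feeding state, do not say how the Hmgb2-/- allele was made, and do not say that each library came from its own mouse, so a p-value here reflects only how far these libraries differ, possibly for technical reasons.

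Fatty acids that enter a hepatocyte are first joined to coenzyme A. Mitochondria take them up through the carnitine shuttle and shorten them by beta oxidation, peroxisomes shorten the longest chains by a parallel set of enzymes, and cytochromes of the Cyp4a family oxidize them from the far, omega end. PPARA, paired with a retinoid X receptor, is switched on by fatty acids and fibrate drugs and raises genes of all these routes in fasted mouse liver, and the acetyl-CoA that results is turned into ketone bodies.

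In the RefSeq promoter table for GRCm38.p6 (250 bases before to 50 after each start) 29 of the 37 symbols had a promoter, 31 promoters in all. The letters AGGTCA repeated with a spacer of 1 base (AGGTCANAGGTCA, both strands), the classical element for this receptor pair, were searched with up to 2 mismatches. They were matched in 4 of the 31 promoters (12.9%) and in 3.86% of 32851 promoters of the same length. The 4 matches are printed below in the direction of each gene, with the 13 matched bases in capitals. They are shown as the members that hold a match, which is only a run of letters.
Slc25a20 (chr9:108662134-108662162, plus strand): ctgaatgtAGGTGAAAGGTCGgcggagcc
Acot4 (chr12:84038358-84038386, plus strand): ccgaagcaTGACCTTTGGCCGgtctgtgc
Cd36 (chr5:17835939-17835967, minus strand): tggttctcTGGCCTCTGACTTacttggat
Echs1 (chr7:140116484-140116512, minus strand): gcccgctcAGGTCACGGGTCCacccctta
Of these 4 genes only Slc25a20 was called lower in knockout liver after oil, and Echs1 was the one member whose estimate was above 0 there. The 250 bases before the starts of Ehhadh and Acot1 are shown as examples of called genes with large falls. Others, such as Acot2, are not shown, and bases farther from the starts were not searched. Neither stretch shown holds AGGTCA on either strand. That 6-base letter run alone occurs in this window in 6 of the 31 promoters (19.35%) and in 14.02% of all.
Ehhadh (chr16:21787835-21788084, minus strand): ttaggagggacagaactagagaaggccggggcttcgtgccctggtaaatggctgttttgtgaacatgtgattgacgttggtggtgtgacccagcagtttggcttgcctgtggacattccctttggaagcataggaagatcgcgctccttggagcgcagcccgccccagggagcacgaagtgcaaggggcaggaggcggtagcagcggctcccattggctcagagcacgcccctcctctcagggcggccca
Acot1 (chr12:84009252-84009501, plus strand): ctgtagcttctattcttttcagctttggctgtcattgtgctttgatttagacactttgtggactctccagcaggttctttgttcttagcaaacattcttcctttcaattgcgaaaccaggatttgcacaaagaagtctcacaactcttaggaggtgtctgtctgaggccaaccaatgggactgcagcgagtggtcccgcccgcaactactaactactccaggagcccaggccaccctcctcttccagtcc

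Levels of different genes were compared on the authors' FPKM scale, which divides by gene length. In WT-Oil liver the omega hydroxylase gene Cyp4a14 stood first with 2236 ± 332 FPKM (SD, n = 3), followed by Cyp4a10 with 1626 ± 344, Acaa1b with 798 ± 84.7, Ehhadh with 785 ± 197 and Acaa2 with 630 ± 50.3, and Pdk4 stood last with 3.22 ± 1.73. The levels of Acaa1b, Ehhadh and Acaa2 did not differ beyond the spread of Ehhadh. In Hmgb2KO-Oil liver the mitochondrial thiolase gene Acaa2 stood first with 565 ± 37.2 FPKM (n = 2), Acaa1b second with 259 ± 28.1, Acadvl at place 3 with 140 ± 3.25, and Cyp4a14 only at place 19 with 46.9 ± 58.4. Thus the 2 most abundant of these transcripts in wild-type liver were Cyp4a transcripts, and the first place in the knockout after oil was held by a mitochondrial gene.

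Between 7306082 (Hmgb2KO-Oil-S11) and 14116886 counts (WT-CCL4-S4) fell on the genes of the table, with 18407 to 19061 genes detected in a library. All 37 genes passed the filter on low counts, which kept 16866 genes. Hmgb2 itself had 1.93 to 7.42 CPM (counts relative to the scaled library size) in wild-type libraries and 0 to 0.951 in Hmgb2-/- libraries. No marker of hepatocytes among 23 was called in any comparison of genotype or treatment, and their summed level was 65539 to 81175 CPM in WT-Oil, 63493 to 63777 in Hmgb2KO-Oil, 55556 to 71492 in WT-CCL4 and 54568 to 67584 in Hmgb2KO-CCL4. In WT-CCL4 against WT-Oil 19 of their estimates were below 0 and 4 above (median log2 -0.31). In that comparison 5 had an unadjusted p below 0.05 (edgeR). In knockout liver 15 were below 0 after CCl4 and 8 above (median -0.17). In these bulk samples fewer cells of a type and less RNA per cell cannot be told apart. For the genes described, 2 libraries stood apart. Hmgb2KO-CCL4-S15 was the highest of its group in 33 of 37 (36.8% of all genes), and WT-CCL4-S5 was the highest of its group in 30 of 37 (38.2% of all genes), so results on CCl4 are given with and without them. Both were set apart by the levels of the 37 genes themselves. Calls made without them therefore show only how the results depend on these libraries, and give no separate support. The hepatocyte markers also summed highest in these libraries: 67584 CPM in S15 (E24 54568, E25 58320) and 71492 in S5 (S4 55556, S6 57450). The part of hepatocyte content in the levels was not tested.

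The first comparison asked how the genes stood in knockout liver without injury. In Hmgb2KO-Oil against WT-Oil 14 of the 37 genes fell and 0 rose (edgeR quasi-likelihood test, adjusted p below 0.05 over all 16866 genes). The median log2 fold change of the 37 was -1.08, where that of all genes was 0.01, and 36 of 37 estimates were below 0. Of all genes tested 4.11% were called in this comparison and 1.92% were called lower. In 34 of the 37 the S11 and S12 values were both lower than S1, S2 and S3, and in 0 both were higher. Of the 23 hepatocyte markers 6 were lower and 3 higher in this way. The share of all genes so ordered was not computed, and with 2 against 3 libraries such an order can arise without a true difference. The called genes were Vnn1, Acaa1b, Ehhadh, Acot1, Hadha, Crat, Acot2, Acsl1, Bdh1, Pdk4, Cpt1a, Slc25a20, Etfdh and Hadhb. The calls depended on the few libraries: leaving out WT-Oil-S1, S2 or S3 gave 10, 9 and 1, and leaving out Hmgb2KO-Oil-S11 or S12 gave 0 and 2, while calls over all genes went from 694 to between 18 and 480. The median stayed between -0.93 and -1.19, and no gene changed sign.

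**Figure D1:**
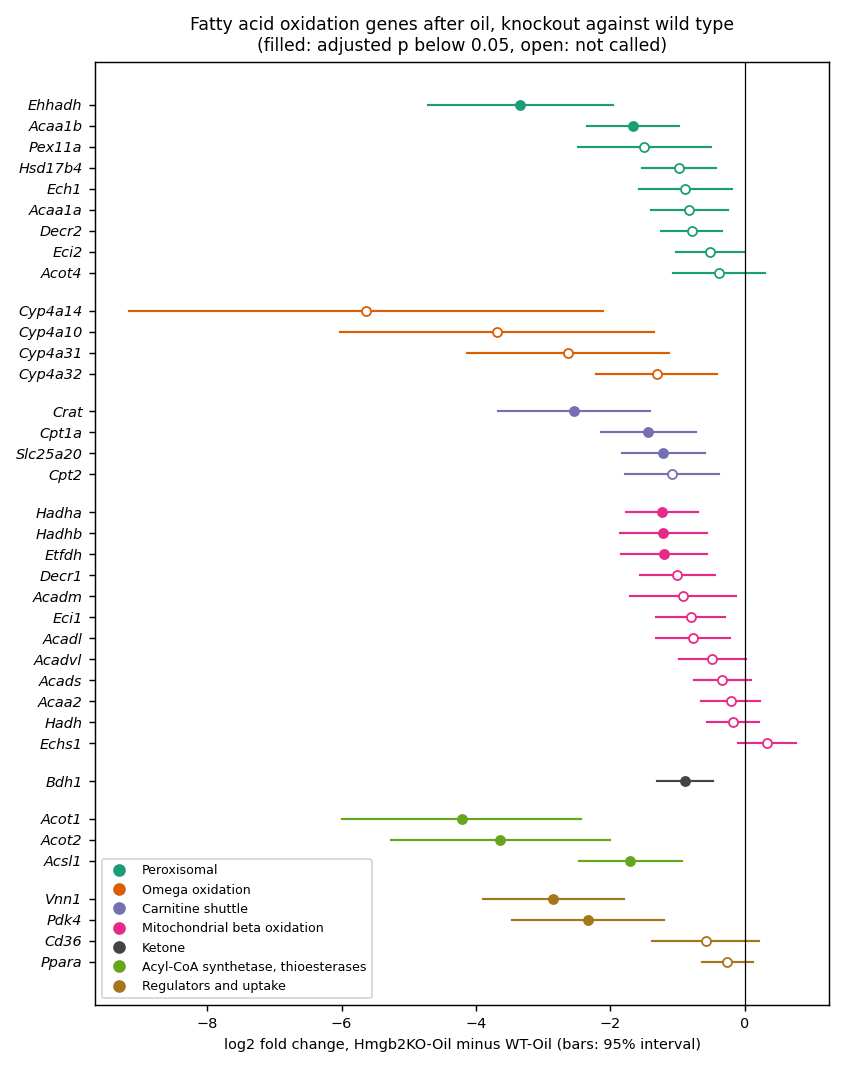
Log2 fold change of each of the 37 genes in Hmgb2KO-Oil against WT-Oil (x axis), grouped by role (colours), with bars for the 95% interval; filled points passed the test. All points but that of Echs1 lie left of 0, and the 3 farthest left are Cyp4a14, Acot1 and Cyp4a10, of which only Acot1 passed.

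The peroxisomal genes had a median log2 fold change of -0.88 and 2 of 9 fell. Ehhadh (ENSMUSG00000022853, mm10 chromosome 16, 21761286 to 21787844), whose bifunctional enzyme hydrates and then oxidizes the chain in peroxisomes, had 2269, 2098 and 3232 CPM in WT-Oil-S1, S2 and S3 and 197 and 304 in Hmgb2KO-Oil-S11 and S12. It was the most reduced of the 9, at 10.1-fold lower (log2 -3.34, SE 0.64, edgeR adjusted p = 0.0171). Acaa1b, one of a pair of similar genes for the thiolase that ends each peroxisomal round, had 1566, 1719 and 1728 CPM in the wild-type and 493 and 559.6 in the knockout libraries. All 5 values were separated by genotype, and the fall was 3.17-fold (edgeR adjusted p = 0.0165). Hsd17b4, the second bifunctional enzyme of the peroxisome, had 815, 799 and 843 CPM against 396 and 434 and missed the threshold (log2 -0.98, SE 0.25, adjusted p = 0.0503, edgeR). The other 6 (Acaa1a, Ech1, Decr2, Eci2, Pex11a and Acot4) had estimates from -1.49 (Pex11a, a peroxisome division factor) to -0.38 (Acot4, a peroxisomal thioesterase), none of them past the test.

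The 4 omega oxidation genes had the lowest median after the genes of acyl-CoA synthesis and hydrolysis, with a median of -3.16, yet none of the 4 passed. They lie side by side on chromosome 4 between 115486199 and 115621602, and reads of such similar genes may be split between them. Cyp4a14 had 6023, 5445 and 7211 CPM in WT-Oil and 15.2 and 234 in Hmgb2KO-Oil. Both knockout libraries were far below the wild type but differed widely from each other, so that a log2 fold change of -5.64 had an SE of 1.63 (95% interval -9.17 to -2.11, edgeR adjusted p = 0.0716). Cyp4a10 had 4178, 2665 and 4239 CPM against 72.4 and 502 (log2 -3.68, SE 1.08, edgeR adjusted p = 0.0748). Cyp4a31, a much rarer transcript, had 28.5, 26.4 and 30.3 CPM against 2.73 and 6.39 (log2 -2.63, edgeR adjusted p = 0.0546). In all 3 genes Hmgb2KO-Oil-S11 was the lower of the pair. Cyp4a32 had a log2 estimate of -1.31 (edgeR adjusted p = 0.0969).

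Of the 4 carnitine shuttle genes 3 fell, with a median of -1.32 over the 4. Cpt1a, the enzyme of the outer mitochondrial membrane that starts the shuttle and limits its rate, had 1715, 1071 and 1386 CPM in WT-Oil and 483 and 547 in Hmgb2KO-Oil. That is 2.70-fold lower (log2 -1.43, SE 0.32, edgeR adjusted p = 0.0319). Crat, which moves acetyl groups between carnitine and coenzyme A, had 156, 211 and 223 CPM against 30.7 and 36.97 and was 5.82-fold lower (edgeR adjusted p = 0.0213). Slc25a20, the carrier that exchanges acylcarnitine for carnitine across the inner membrane and whose promoter window holds one of the matches printed above, had 242, 237 and 244 CPM against 97.8 and 111. Its wild-type values were close together, and it was 2.31-fold lower (edgeR adjusted p = 0.0354), but the call was lost whichever library was left out. Cpt2, which re-forms acyl-CoA inside, had a log2 estimate of -1.08 and did not pass (edgeR adjusted p = 0.0812).

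Mitochondrial beta oxidation genes had a median of -0.79, and 3 of 12 fell. Hadha and Hadhb, which encode the alpha and beta subunits of the trifunctional protein and lie head to head on chromosome 5 (30118303 to 30155162 and 30155247 to 30184593), both fell. Hadha had 806, 686 and 762 CPM in WT-Oil and 279.9 and 360.3 in Hmgb2KO-Oil, 2.35-fold lower (edgeR adjusted p = 0.0191). Hadhb had 375, 336 and 368 CPM against 135 and 176, 2.31-fold lower (edgeR adjusted p = 0.0441). For both genes the groups did not overlap and S11 was the lower knockout library. Etfdh, which passes electrons from the acyl-CoA dehydrogenases to ubiquinone, had 516, 583 and 639.9 CPM against 216 and 287 and was 2.30-fold lower (edgeR adjusted p = 0.0419). The calls of Hadhb and Etfdh were lost whichever library was left out. The other 9 had estimates from -0.999 (Decr1, the reductase for unsaturated chains, edgeR adjusted p = 0.0515) to 0.34 (Echs1, the short-chain hydratase). Acaa2, the thiolase of the last step, with 1152, 1001 and 919 CPM in WT-Oil and 858 and 915 in Hmgb2KO-Oil, had an estimate of -0.21 with a 95% interval of -0.65 to 0.24. The dehydrogenase genes stood in the order Acadm (-0.92), Acadl (-0.77), Acadvl (-0.48) and Acads (-0.33), log2 estimates that did not pass. Eci1, an isomerase of unsaturated chains, stood at -0.80 and Hadh, the short-chain dehydrogenase, at -0.18.

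Summed over the members of a role, the omega oxidation genes had 8194 to 11574 CPM in the WT-Oil libraries and 112 to 783 in Hmgb2KO-Oil. Peroxisomal genes summed to 6158 to 7394 against 1937 to 2265, and carnitine shuttle genes to 1764 to 2401 against 728 to 832. Mitochondrial genes summed to 5151 to 5494 against 3213 to 3635, so all 4 ranges were separate between the genotypes.

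Bdh1, the dehydrogenase that interconverts the main ketone bodies, had 281, 238 and 252 CPM in WT-Oil and 116 and 163 in Hmgb2KO-Oil. It fell 1.84-fold (log2 -0.88, SE 0.19, edgeR adjusted p = 0.0275), a size close to the median of the mitochondrial genes. All 3 genes of acyl-CoA synthesis and hydrolysis fell, with a median of -3.64. Acsl1, the main long-chain acyl-CoA synthetase of liver, had 2886, 3306 and 3583 CPM against 901 and 1107, 3.24-fold lower (edgeR adjusted p = 0.0221). The thioesterase genes Acot1 (cytosolic) and Acot2 (mitochondrial), neighbours on chromosome 12 whose reads may be split, had larger fold changes. Acot1 had 89.8, 139 and 187 CPM against 6.75 and 8.15, 18.6-fold lower (log2 -4.21, SE 0.82, edgeR adjusted p = 0.0188). Acot2 had 11.1, 27.4 and 39.8 CPM against 1.72 and 2.45, 12.5-fold lower (edgeR adjusted p = 0.0217), a call that limma-voom did not make (adjusted p = 0.0917). Acot4, in the same gene cluster, had 24.9, 47.4 and 47.4 CPM against 28.1 and 33.3, groups that overlapped.

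Among regulators and uptake genes, Vnn1 and Pdk4 fell and Ppara and Cd36 did not pass. Vnn1, the pantetheinase of the cell surface and a known PPARA target, had 92.1, 193 and 186 CPM in WT-Oil and 11.8 and 31.8 in Hmgb2KO-Oil. It was 7.19-fold lower with the smallest adjusted p of the 37 (log2 -2.85, SE 0.49, edgeR adjusted p = 0.0107), a call lost only without S11 among the libraries left out. Its log2 fold change was -2.30 without S11 and -3.73 without S12. Pdk4, the kinase that shuts pyruvate dehydrogenase when fat is burned, had 5.22, 16.8 and 13.6 CPM against 2.58 and 2.17, 5.03-fold lower (edgeR adjusted p = 0.0312), a call that limma-voom did not make (adjusted p = 0.13). Ppara, the receptor gene itself, had 215, 250.2 and 246 CPM in WT-Oil and 197 and 199 in Hmgb2KO-Oil. Its estimate of -0.26 had a 95% interval of -0.64 to 0.12 and did not pass (edgeR adjusted p = 0.444), although both knockout values lay under all 3 wild-type values. Cd36, the fatty acid transporter of the plasma membrane, had 40.1, 127 and 86.1 CPM against 61.01 and 51.9, with S1 below both knockout libraries (log2 -0.58, edgeR adjusted p = 0.41).

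**Figure D2:**
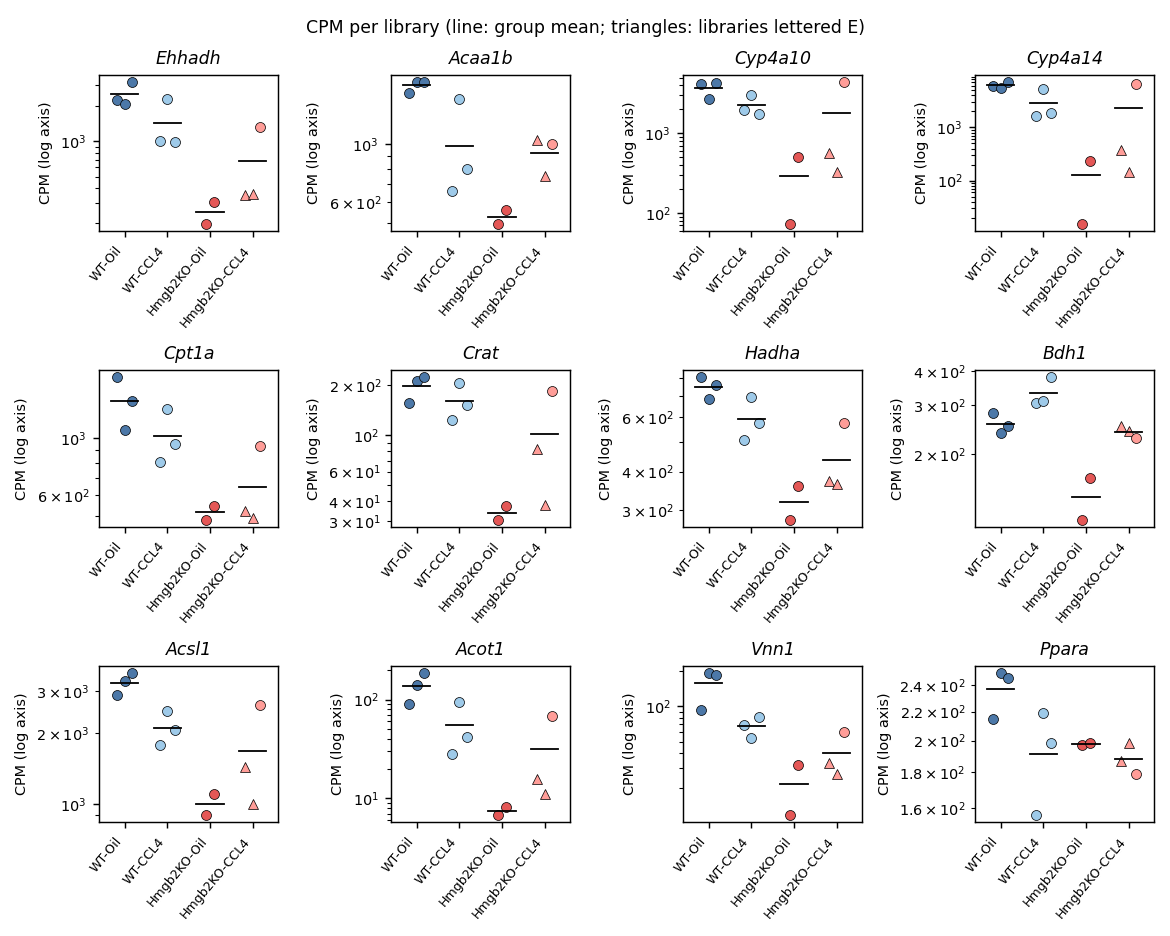
CPM (y axis, log scale) of 12 genes in each library, by group (x axis), with a line at the group mean and triangles for the libraries lettered E. In all 12 panels both Hmgb2KO-Oil points lie below the 3 WT-Oil points, and in most panels Hmgb2KO-CCL4-S15 lies above E24 and E25, though not for Acaa1b, Bdh1 and Ppara.

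Other genes of these pathways were counted from a list of 152, of which 143 were tested. In Hmgb2KO-Oil against WT-Oil 15 of them fell and 7 rose, with a median of -0.25, where 1.92% of all genes were called lower and 2.19% higher. Plin2, the coat protein of lipid droplets, had 955, 1149.6 and 1178 CPM against 178 and 246, 5.16-fold lower (edgeR adjusted p = 0.00379). The monocarboxylate transporter gene Slc16a1, which carries ketone bodies, had 121, 164 and 156 CPM against 32.6 and 38.1, and Crot, the peroxisomal carnitine octanoyltransferase gene, had 1474, 1976 and 1858 against 477 and 646. Both fell, by 2.06 and 1.66 on the log2 scale (edgeR adjusted p = 0.00376 and 0.00516). Gpd1, a glycerol-3-phosphate dehydrogenase gene, fell by 1.52 (edgeR adjusted p = 0.00626). Fgf21, the fasting hormone, had 17.8, 13.3 and 18.7 CPM against 0.431 and 0.136, the latter from 3 reads and 1 read, and was called lower (edgeR adjusted p = 0.0310). Angptl4, a secreted inhibitor of lipoprotein lipase, fell 3.76-fold (edgeR adjusted p = 0.0116). None of 23 receptors and cofactors passed, among them Rxra (-0.36), Creb3l3 (-0.59) and Ppargc1a (-0.80), given as log2 estimates. After CCl4, 5 of the 143 rose and 7 fell in wild-type liver, a share close to the 8.48% of all genes called there. In knockout liver 2 of the 143 rose, where 0.652% of all genes were called in either direction. The latter were Slc16a1 (100.1, 66.3 and 131 CPM in Hmgb2KO-CCL4, 2.80-fold over Hmgb2KO-Oil, edgeR adjusted p = 0.0298) and Gpd1 (476, 376 and 574 CPM, 2.13-fold, edgeR adjusted p = 0.0498).

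Genes of the circadian clock moved in the same libraries: 12 of 20 rose and 2 fell in Hmgb2KO-Oil against WT-Oil (edgeR). Of all genes 2.19% were called higher and 1.92% lower there. Log2 estimates of the 20 ran from -7.74 to 3.69, with a median of 1.08, and 18 had an unadjusted p below 0.05. Their summed level was 1407 to 1452 CPM in Hmgb2KO-Oil and 628 to 808 in WT-Oil. After CCl4 the clock sum was 750 to 815 in WT-CCL4, and 1031 in E24, 1249 in E25 and 880 in S15 of Hmgb2KO-CCL4. In knockout liver 2 of the 20 rose and 3 fell after CCl4 (0.652% of all genes called), with log2 estimates from -2.13 to 7.26. In wild-type liver 2 rose (8.48% of all genes called). Between the genotypes after CCl4 0 were called (1.2% of all genes), and in the interaction 2 were called lower (0.101%), all by edgeR. The labels do not give the hour of collection. Many genes of fatty acid oxidation follow the clock in liver, and its part in the lower levels was not tested. The 7 adipose markers in the table summed to 2518 to 2524 CPM in Hmgb2KO-Oil and 943 to 1446 in WT-Oil, with 1 of the 7 lower and 0 higher by edgeR, and most of the knockout sum was Car3 (2149 ± 48.1 CPM, SD, n = 2, against 522 ± 274, n = 3, in WT-Oil), which hepatocytes also express. Its part was not tested either.

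The second comparison asked what CCl4 did in wild-type liver. Of the 37 genes 0 were called in WT-CCL4 against WT-Oil by edgeR, where 8.48% of all genes were, while 10 had an unadjusted p below 0.05. DESeq2 called 4 (11.1% of all genes) and limma-voom 1 (7.49%). The share of all genes at that unadjusted p was not computed, here or in the later comparisons. Without WT-Oil-S1 the edgeR count was 2 (7.94% of all genes). The median was -0.41 (all genes -0.02) and 33 of 37 estimates were below 0. WT-CCL4-S5 lay at or above the lowest WT-Oil library in 22 of the 37, S6 in 11 and S4 in 5. The share of all genes so placed was not computed. Without a true difference a library would also lie there in most genes. Ehhadh had 1017, 2299 and 984 CPM in S4, S5 and S6 and 2269, 2098 and 3232 in WT-Oil. Cyp4a14 had 1654, 5143 and 1889.6 CPM, Cyp4a10 1946, 3061 and 1730.1 and Acot1 28.1, 94.1 and 42.2, with S5 the highest of the 3 for each of these genes. In Acaa1b, with 658, 1481 and 803 CPM, S5 was likewise high. S5 was the highest of the 3 for all 4 shuttle genes and for 10 of the 12 mitochondrial genes, the exceptions being Hadh and Acaa2. Cpt1a had 805, 1297 and 951 CPM, Crat 123, 206 and 151 and Hadha 506, 696 and 573 in S4, S5 and S6. The median ratio of S5 to the mean of S4 and S6 was 1.65 over the omega oxidation genes, 1.49 over shuttle, 1.39 over peroxisomal and 1.18 over mitochondrial genes. Vnn1 had 69.3, 53.8 and 81.5 CPM against 92.1, 193 and 186 in WT-Oil, and here S5 was the lowest (log2 -1.20, edgeR adjusted p = 0.0731). Acsl1 had 1785, 2473 and 2061 CPM, all 3 below the WT-Oil libraries. Summed by role the ranges were 3713 to 8305 CPM for omega oxidation, 3166 to 5804 for peroxisomal, 1232 to 1988 for shuttle and 3949 to 4937 for mitochondrial genes.

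Without S5 the genes Acaa1a, Acaa1b and Cyp4a32 were called lower, with log2 fold changes of -1.03, -1.19 and -1.44 (edgeR adjusted p = 0.0138, 0.0030 and 0.0336), and the median was -0.52. Of all genes 13.4% were called without S5. Acaa1a had been nearest to the threshold with all libraries (log2 -0.80, edgeR adjusted p = 0.0508). Macrophage markers were lower in S5 than in S4 and S6: the summed level of 14 markers of infiltrating macrophages was 252 CPM in S5 against 627 in S4 and 741 in S6, and 62.1 to 120 in WT-Oil, and 13 of the 14 rose in WT-CCL4. Of 15 stellate cell markers 8 rose and 1 fell, and they summed to 666 to 751 CPM in WT-Oil and 1247 to 2976 in WT-CCL4. The part of these cells in the levels was not tested. Cyp4a31 stood against the other Cyp4a genes, with 83.5, 55.5 and 88.4 CPM in WT-CCL4 and 28.5, 26.4 and 30.3 in WT-Oil, groups that did not overlap, and its estimate of 1.42 did not pass (SE 0.51, edgeR adjusted p = 0.11). The remaining estimates above 0 were those of Bdh1 (0.37), Pdk4 (0.61) and Cd36 (0.59), none of them called.

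The third comparison was CCl4 against oil in knockout liver, and it shares the 2 Hmgb2KO-Oil libraries with the first, as the second shares the 3 WT-Oil libraries with it. By edgeR 0 of 37 were called, where 0.652% of all genes were, and 12 had an unadjusted p below 0.05. DESeq2 called 5 higher (2.31% of all genes called) and limma-voom 0 (0.326%). Without E25 the edgeR count was 1 (0.670% of all genes). The median was 0.40 and 30 of 37 estimates were above 0. Bdh1 came nearest, with 252, 242 and 229 CPM in Hmgb2KO-CCL4-E24, E25 and S15 and 116 and 163 after oil (log2 0.79, SE 0.19, edgeR adjusted p = 0.0898). For this gene the 3 libraries after CCl4 were close together and all above both after oil. Pdk4 had 12.1, 8.24 and 10.5 CPM against 2.58 and 2.17 (log2 2.10, edgeR adjusted p = 0.0977), and Cd36 had 124, 131 and 164 against 61.01 and 51.9 (log2 1.31, edgeR adjusted p = 0.153). These genes, too, were higher in all 3 libraries after CCl4 than in both after oil.

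Ehhadh, Acaa1b, Crat, Hadha, Acot1 and Acot2 were also higher in all 3 libraries after CCl4 than in both after oil, which makes 9 of the 37 in all. In this way 0 of the 37 were lower, and of the 23 hepatocyte markers 3 were higher and 9 lower. The share of all genes so ordered was not computed, and with 3 against 2 libraries such an order can arise without a true difference. Over the 37 genes S15 lay above both Hmgb2KO-Oil libraries in 34, E24 in 21 and E25 in 10. For single libraries, too, the share of all genes was not computed. A library can lie above both in many genes without a true difference. Cyp4a14 had 370.3, 148 and 6530.3 CPM in E24, E25 and S15, so S15 alone was in the range of WT-Oil. Cyp4a10 had 562, 325 and 4437 CPM and Ehhadh 351, 352 and 1331. In the same order Acot1 had 15.6, 11.04 and 68.4 and Acot2 5.42, 6.35 and 23.9. S15 was the highest in each of these genes. Among mitochondrial and shuttle genes, Cpt1a had 524, 488 and 931 CPM, Crat 81.8, 37.8 and 185, Hadha 372, 364 and 573, Hadhb 153, 148 and 314 and Etfdh 324, 276 and 579.9. Acsl1 had 1439, 1005 and 2610.0 CPM and Vnn1 32.8, 26.3 and 60.3. In all 7 of these genes S15 was again the highest. The sums by role ran from 492 to 11032 CPM for omega oxidation and from 3207 to 5268 for mitochondrial genes. S15 exceeded the mean of E24 and E25 by a median of 1.84-fold over the 37 genes, by 7.79-fold over the omega oxidation genes and by 4.07-fold over the genes of acyl-CoA synthesis and hydrolysis. Over the mitochondrial genes the median was 1.64-fold, over the peroxisomal 1.63-fold, and for Bdh1 the ratio was 0.93. S15 lay at or above the lowest WT-Oil library in 17 of 37 genes, E24 in 5 and E25 in 4. The share of all genes so placed was not computed.

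**Figure D3:**
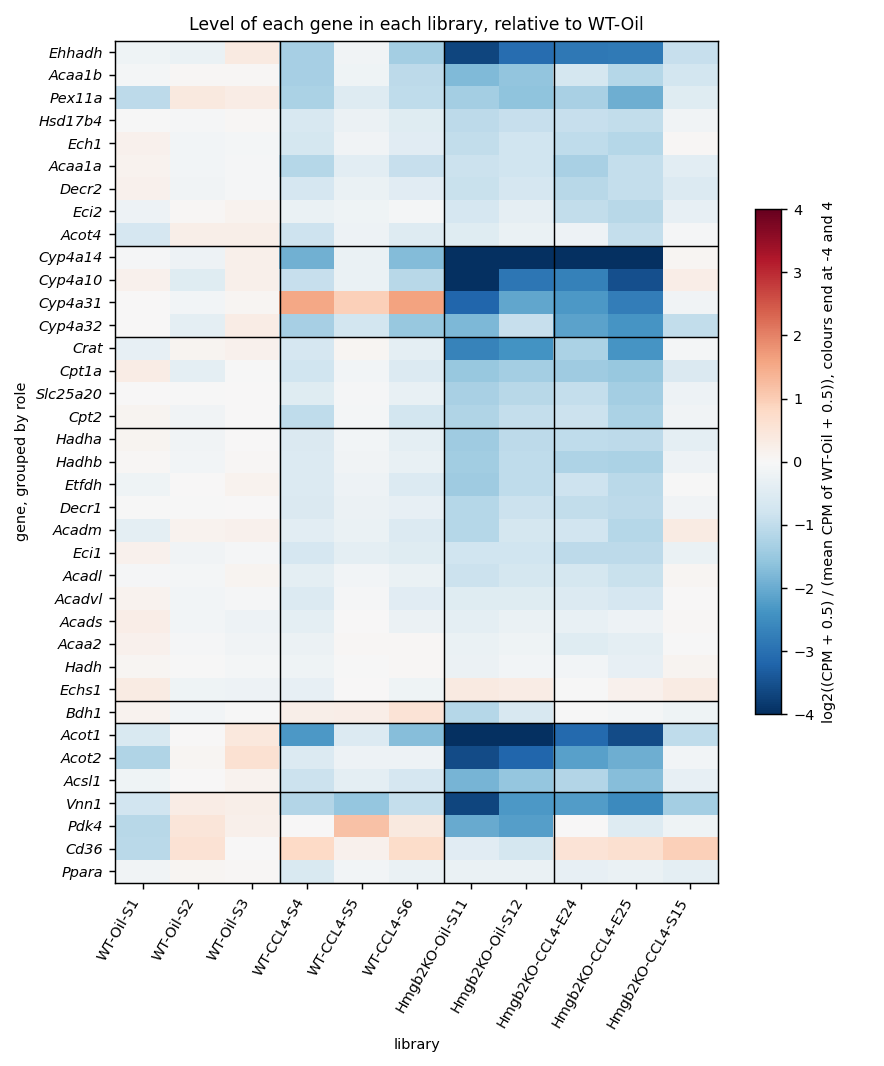
Level of each gene (rows, grouped by role) in each library (columns), as log2 of its CPM over the WT-Oil mean after adding 0.5 to both (colours, ending at -4 and 4). S12 lies above S11 in 33 of the 37 rows, and the S15 column is nearer to the WT-Oil columns than E24 and E25 for most rows, being the highest of its group in 33.

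Without S15 the median change after CCl4 in the knockout was -0.00187, with 19 of 37 estimates negative and 0 calls. Without E24 and E25, with S15 assumed to vary like the other groups, the median was 0.92 and Cyp4a31, Crat, Acot1 and Acot2 were called higher (edgeR adjusted p = 0.0252, 0.0151, 0.0441 and 0.0326), where 0.697% of all genes were called. S15 had 0.402 CPM of Hmgb2, close to the 0.387 and 0.412 of E24 and E25. The infiltrating macrophage markers, 0 of 14 called in this comparison, summed to 167 to 246 CPM in Hmgb2KO-CCL4 and 96.8 to 109 in Hmgb2KO-Oil. The 10 markers of Kupffer cells, the resident macrophages, all had estimates below 0, with 0 called and 6 at an unadjusted p below 0.05 (edgeR), and summed to 412 to 657 CPM in Hmgb2KO-CCL4 and 734 to 833 in Hmgb2KO-Oil. A sum over 7 adipose markers in the table, most of it Car3, which hepatocytes also express, was 1017 CPM in S15, 4533 in E24 and 3680 in E25, and the part of these lists was not tested. The letters of the titles separate S15 from E24 and E25, and what they stand for is not given in the sources used here, so a batch and a difference between samples cannot be told apart.

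After CCl4 the genotypes were compared in Hmgb2KO-CCL4 against WT-CCL4. Of the 37 genes 1 was called, Cyp4a31, which was lower, while 1.2% of all genes were called and 0.889% were called lower. The median was -0.29 and 32 of 37 estimates were below 0. Cyp4a31 had 5.42, 3.79 and 25.7 CPM in E24, E25 and S15 and 83.5, 55.5 and 88.4 in S4, S5 and S6, 6.58-fold lower (log2 -2.72, SE 0.54, edgeR adjusted p = 0.0365). Over both treatments the 5 knockout values of this gene were lower than the 6 wild-type values, which among the 37 was otherwise so only for Eci2, the peroxisomal enoyl-CoA isomerase. The share of all genes so ordered was not computed. Without S15 the log2 fold change of Cyp4a31 was -4.05, and without both E24 and E25 it was -1.54. The call of Cyp4a31 was lost without S4, S6, E24 or E25 (edgeR adjusted p from 0.0537 to 0.163). Cell type markers differed in the same comparison. Of 14 infiltrating macrophage markers 3 fell and all 14 estimates were below 0, with sums of 167 to 246 CPM in Hmgb2KO-CCL4 and 252 to 741 in WT-CCL4. Of the 10 Kupffer cell markers 0 were called (edgeR; 4 at an unadjusted p below 0.05) and all estimates were below 0, with sums of 412 to 657 and 682 to 863 CPM. Of 15 stellate cell markers 0 were called (7 at an unadjusted p below 0.05) and 12 estimates were below 0, with sums of 955 to 1209 and 1247 to 2976 CPM. Their part in the levels of the 37 genes was not tested.

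Eci2 had 275, 327 and 347 CPM in WT-Oil, 264, 283 and 297 in WT-CCL4, 197 and 246 in Hmgb2KO-Oil and 161, 146 and 251 in Hmgb2KO-CCL4. Its estimates were -0.51 after oil and -0.60 after CCl4, neither past the test. Without S15, 6 genes were called lower in the knockout after CCl4, where 2.15% of all genes were called in either direction. These were Cyp4a31, Ehhadh (log2 -2.03, edgeR adjusted p = 0.0245), Crat (-1.43), Hadhb (-0.94), Slc25a20 (-0.88) and Eci2 (-0.88), and the median was -0.64. Without E24 and E25 0 were called (0.240% of all genes) and the median was 0.26. Ppara had 187, 198 and 179 CPM against 156, 219 and 199 in WT-CCL4, with an estimate of -0.02 and a 95% interval of -0.36 to 0.31.

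The last test asked whether CCl4 acted differently in the genotypes, as the interaction term, which uses all 4 groups. By edgeR 0 of 37 were called, where 0.101% of all genes were, and 15 had an unadjusted p below 0.05. DESeq2 called 3 (2.30% of all genes) and limma-voom 0 (0.0830%). The median was 0.76 and 33 of 37 estimates were above 0, with 1.58 for Acaa1b (SE 0.41, edgeR adjusted p = 0.133) as the one nearest to the threshold. By role the medians were 2.82 for acyl-CoA synthesis and hydrolysis, 2.05 for omega oxidation, 1.11 for regulators and uptake, 0.87 for the carnitine shuttle, 0.77 for peroxisomal genes, 0.58 for mitochondrial genes and 0.42 for Bdh1. The difference between CCl4 effects was therefore not established for any single gene with all libraries. Without E24 and E25 the count was 10 (1.47% of all genes). Without E25 alone it was 1 (1.01%), without WT-CCL4-S5 also 1 (1.70%), and without S15 it was 0 (0.498%) with a median of 0.41.

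**Figure D4:**
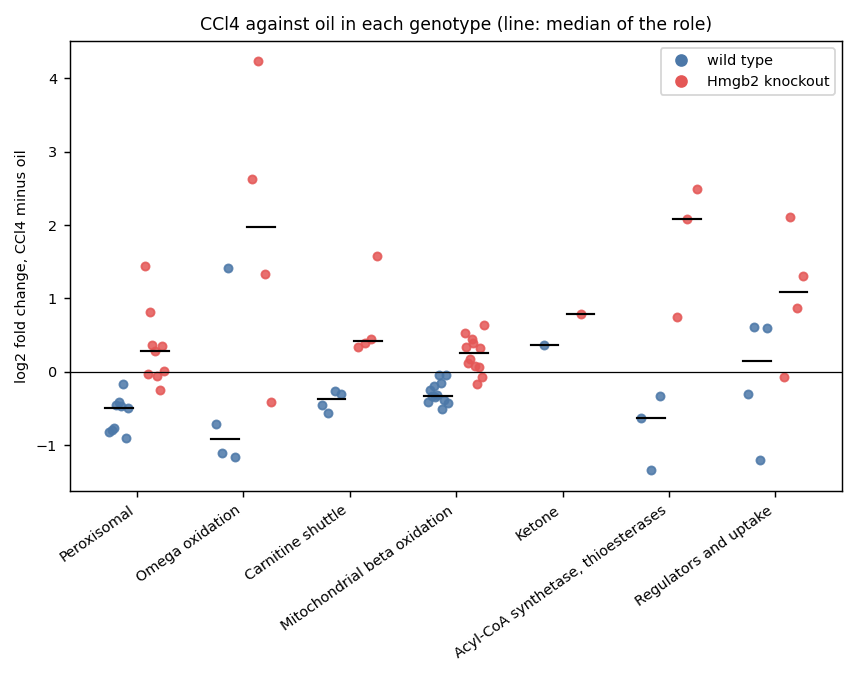
Log2 fold change after CCl4 (y axis) of each gene by role (x axis) in wild-type (blue) and knockout liver (red), with a line at the median of the role. Wild-type medians lie below 0 in 5 of the 7 roles and knockout medians above 0 in all 7; the 2 genotypes' points come from separate groups and no role was tested.

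In the authors' deposited table, made with DESeq2, 20 of the 37 genes had an adjusted p below 0.05 as lower in Hmgb2KO-Oil than in WT-Oil, of which 13 were also called here, while 5.46% of all genes in the authors' deposited table were called in either direction. Of the omega oxidation genes, Cyp4a14 and Cyp4a31 were among the 20 (authors' DESeq2 adjusted p = 0.000258 and 0.0108) and Cyp4a32 was not (0.0739). Cyp4a10 (authors' log2 ratio -2.39) was not among them either, and its deposited score may stand for a missing value. The authors' deposited table called 1 of the 37 lower in WT-CCL4 than in WT-Oil (9.73% of all genes in either direction), 3 higher in Hmgb2KO-CCL4 than in Hmgb2KO-Oil (1.72%), and 1 lower in Hmgb2KO-CCL4 than in WT-CCL4 (3.11%).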

How the data were processed

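Per the labels' protocols, livers were frozen in liquid nitrogen and libraries made with a stranded total RNA kit, while the design text names capped RNA; the 2 statements were not reconciled here. Bowtie, DESeq2, mm10 and GRCm38 are named in the submitters' processing notes, without versions. Per the file headers and column descriptions, the authors deposited raw counts per gene and library, made by USeq: a pair was counted once for any gene it overlapped by at least 1 base, so overlapping genes can share reads (among the genes named, Ehhadh, Acaa1a, Acaa1b, Hsd17b4, Eci2, Pex11a, Acot4, Crat, Acadl, Acadvl, Echs1, Decr1, Etfdh, Bdh1, Acsl1, Slc16a1 and Crot), and whether strand was used is not given. The authors' deposited FPKM values are counts per length and library total, used here for levels between genes. Log2 ratios and a score per gene (-10 × log10 of the adjusted p from DESeq2) were also deposited by the authors, and were turned to the direction used here.

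The test was edgeR 4.0.16 in R 4.3.3 on the deposited counts: TMM scaling, filterByExpr (minimum count 10, total 15), 1 quasi-likelihood fit of 4 group means over all 11 libraries, 5 contrasts, Benjamini-Hochberg over 16866 genes, call below 0.05. CPM values use TMM-scaled library sizes, and an SE is the log2 fold change over the square root of F. The fit was also run on simulated counts in which no library was made to stand apart. That run therefore says nothing on the effect of S5 and S15. No libraries were duplicates (chi-square per degree of freedom 6.77 to 75.1 between replicates).

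Members and lists were chosen with earlier results of these data known. Values in every oil library are given for the 3 genes of each role with the smallest p in Hmgb2KO-Oil against WT-Oil. They are also given for Ppara, Cpt1a, Hadha, Bdh1, Pdk4, Cd36, Vnn1 and Ehhadh, and for genes called in another comparison. Values in the CCl4 libraries are given for only some of these genes. Acaa2, Acot4 and Eci2 were added after their values were seen. Alternatives were RLE and upper quartile scaling, no filter, a mean of at least 5 CPM, DESeq2 1.42.0, limma-voom (3.58.1), only the groups compared, and libraries left out. Some genes of the wider pathway list are not reported here by name. Promoters are from RefSeq (GRCm38.p6).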

Additional observations from a re-analysis of the deposited data

Results flagged for a closer look

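Acaa1b, a peroxisomal thiolase gene, had estimates of opposite sign after CCl4 in the 2 genotypes, and neither was called. The log2 fold change was -0.77 in wild-type liver (edgeR adjusted p = 0.0988) and 0.81 in knockout liver (edgeR adjusted p = 0.269). The gene was picked from the genes described for this difference between the genotypes. All 3 WT-CCL4 libraries (658, 1481 and 803 CPM) lay below all 3 WT-Oil libraries (1566, 1719 and 1728), and all 3 Hmgb2KO-CCL4 libraries (1032, 751 and 995) lay above both Hmgb2KO-Oil libraries (493 and 559.6). With 3 against 3 and 3 against 2 libraries, such an order can arise without a true difference. The difference of the 2 log2 fold changes was 1.58 (SE 0.41) and did not pass the test (edgeR interaction, adjusted p = 0.133). Without WT-CCL4-S5 it was 2.01 and passed (edgeR adjusted p = 0.00905). S5 was set apart by its high levels of the genes described, Acaa1b among them. Leaving it out enlarges the wild-type fall, so this pass gives no separate support. Acaa1b overlaps Dlec1 and resembles Acaa1a, and reads shared with them were not separated here.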

How the results depend on the processing

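No paired analysis was possible because the labels give no number that 2 groups share. Counts of called genes among the 37 were computed under each alternative. For Hmgb2KO-Oil against WT-Oil (14) RLE scaling and no filter gave 14, upper quartile scaling, a mean of at least 5 CPM and limma-voom 16 (12 of the 14 among them, without Acot2 and Pdk4), DESeq2 24, only the groups compared 26, and leaving out 1 library 0 to 10. For WT-CCL4 against WT-Oil (0) no filter and limma-voom gave 1, DESeq2 and only the groups compared 4, and leaving out 1 library 0 to 3. For Hmgb2KO-CCL4 against Hmgb2KO-Oil (0) DESeq2 gave 5, only the groups compared 2, leaving out both libraries lettered E 4, and leaving out 1 library 0 to 1. For Hmgb2KO-CCL4 against WT-CCL4 (1) a mean of at least 5 CPM, only the groups compared and leaving out both E libraries gave 0, and leaving out 1 library 0 to 6. For the interaction (0) DESeq2 gave 3, leaving out both E libraries 10, and leaving out 1 library 0 to 1. In the order of these comparisons DESeq2 called 7.70%, 11.1%, 2.31%, 4.29% and 2.30% of all genes. With only the groups compared, the shares without the interaction were 5.22%, 8.46%, 0.304% and 0.195%. Other alternatives gave the main counts, and DESeq2 left 1 of the 37 without an adjusted p. The cause of these changes was not tested, beyond fewer samples where libraries were left out. No estimate of Hmgb2KO-Oil against WT-Oil changed sign under any alternative, and no called value of any comparison did. Among values that were not called, 10, 26, 58 and 24 changed sign over the alternatives in the wild-type CCl4, knockout CCl4, CCl4 genotype and interaction comparisons. Where an alternative left 1 library in a group, it was assumed to vary like the others. The 2 Hmgb2KO-Oil libraries were the shallowest, and Acot2 and Pdk4 had the fewest reads of the 37 there (12 and 18 in S11).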

Other observations

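Not all genes of these pathways were lower in knockout liver after oil. Of the 143 further pathway genes 7 rose, where 2.19% of all genes were called higher, and they are named here after their values were seen. Bdh2, a cytosolic butyrate dehydrogenase gene, had 7.83, 5.34 and 4.48 CPM in WT-Oil and 20.1 and 20.2 in Hmgb2KO-Oil (3.45-fold, edgeR adjusted p = 0.00976). Aacs, which activates acetoacetate for lipid synthesis in the cytosol, had 6.70, 8.08 and 6.14 against 27.9 and 34.9 (4.48-fold, edgeR adjusted p = 0.0333). In both genes the groups did not overlap. Acot11, Acsm5 and Acsl3 rose 3.27-fold, 2.08-fold and 2.07-fold (edgeR adjusted p = 0.0424, 0.0282 and 0.0387), and overlap another gene of the table. Per2 and Nr1d1, which are also clock genes, rose 2.07-fold and 1.99-fold (edgeR adjusted p = 0.0319 and 0.0401). After CCl4, Aacs had 36.5, 72.5 and 13.9 CPM in Hmgb2KO-CCL4-E24, E25 and S15 and 13.8, 7.85 and 13.7 in WT-CCL4, and Bdh2 had 12.8, 19.3 and 9.15 and 6.29, 7.94 and 6.59. S15 was the lowest of the knockout libraries for both, where it was the highest for most of the 37.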
